A study of Mus musculus with 8 samples.

Results

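Neuronatin (Nnat) and 9 further imprinted genes were measured in mouse skin by RNA sequencing. The 9, most of which act on growth, are Igf2, Dlk1, Peg3, Mest, Plagl1, Ndn, Cdkn1c, Grb10 and Sgce. These 10 of the 22740 protein-coding genes listed were taken by name, and the list was chosen by values of these same libraries, so that their levels and fold changes are given as a description with no test. All 10 passed the filter on low counts and were among the 15163 genes tested. The dorsal skin came from 8 female BALB/c mice on a low-fibre diet, aged 6 to 8 weeks, with 2 mice in each of 4 groups. Baseline CTL mice received neither butyrate nor allergen. Baseline butyrate mice drank 400 mM sodium butyrate and were not exposed to allergen. Lesional CTL mice had house dust mite (HDM) extract placed on shaved skin, 4 exposures of 15 µg over 2 weeks, which sets off an atopic dermatitis-like inflammation. Lesional butyrate mice had the same HDM exposures and drank 400 mM sodium butyrate from 2 weeks before the first exposure onward.

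An imprinted gene is transcribed mainly from the copy inherited from one parent, as DNA methylation laid down in egg or sperm differs between the copies. Many such genes are highly expressed in the fetus, set the growth of fetus and placenta, and decline after birth, while adult skin keeps some of them in its mesenchyme. Genes expressed from the father's copy tend to promote growth, as Igf2 does, and genes expressed from the mother's copy, such as Cdkn1c, tend to restrain it. Nnat encodes a small membrane proteolipid of the endoplasmic reticulum that resembles phospholamban, an inhibitor of the calcium pump SERCA, and it lies within an intron of Blcap. The counts do not separate the parental copies, so the values below are levels of both copies together.

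Nnat (ENSMUSG00000067786) was annotated at chr2:157560078-157562522 on the plus strand of GRCm38, inside Blcap on the minus strand, with which it shares 0 exon bases. Its promoter is shown because, of the 10, it is the gene whose level differed most between the groups. The 250 bases before its start, at chr2:157559828-157560077 on the plus strand of GRCm38.p6 as RefSeq gives them, are printed 5′ to 3′ with each CpG, the dinucleotide that DNA methylation marks, in capitals.
Nnat promoter: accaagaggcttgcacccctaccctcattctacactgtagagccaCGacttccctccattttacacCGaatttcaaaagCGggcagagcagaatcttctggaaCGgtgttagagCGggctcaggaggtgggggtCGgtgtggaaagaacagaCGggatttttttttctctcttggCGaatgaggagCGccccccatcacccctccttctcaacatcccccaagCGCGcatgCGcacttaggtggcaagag
This stretch held 12 CpG, against a median of 6 over 32851 RefSeq promoters of the same length, 66.51% of which held fewer. RefSeq promoters were matched for 8 of the 10 genes, and they ranged from 1 CpG in a promoter of Igf2 to 40 CpG in a promoter of Grb10. DNA methylation was not measured in this material.

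The libraries held between 18004136 and 21085544 counts, and levels are given as CPM, which is counts per 1000000 counts of a library after TMM scaling. TMM sets the libraries so that most genes are equal between them. A single library stood apart. In baseline butyrate replicate 3, the summed level of 12 marker genes of the growing (anagen) hair follicle was 17722 CPM, against 35.6 to 52.2 CPM in the other 7 libraries. The 2 mice of the baseline butyrate group differed by more than 2-fold in 3757 of 14198 genes, against 203 to 683 genes in the other groups. The labels also number the baseline and lesional mice as different sets, so that the effect of HDM and a difference between the sets cannot be told apart. The mice of a group are separate animals, and 2 a group cannot reach a small p in an exact test of a single value, the smallest being 0.333.

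Nnat had reads in every mouse and was much lower in all 4 lesional mice than in all 4 baseline mice. Its level was 35.6 and 18.3 CPM in baseline CTL replicates 1 and 2, and 32.5 and 13.1 CPM in baseline butyrate replicates 1 and 3. In lesional CTL replicates 4 and 5 it was 1.87 and 0.692 CPM, and in lesional butyrate replicates 3 and 4 it was 0.382 and 0.279 CPM. The lowest baseline mouse was thus above the highest lesional mouse, and both lesional butyrate mice were below both lesional CTL mice. In counts, the baseline libraries held 640, 330, 576 and 276 reads of Nnat, and the lesional libraries held 35, 15, 8 and 6. The exact 95% Poisson interval, which covers counting error only, was 24.4 to 48.7 counts for the highest lesional library and 2.20 to 13.1 counts for the lowest. It was 8.40 to 24.7 counts for lesional CTL replicate 5 and 3.45 to 15.8 counts for lesional butyrate replicate 3, and these intervals overlapped.

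**Figure D1:**
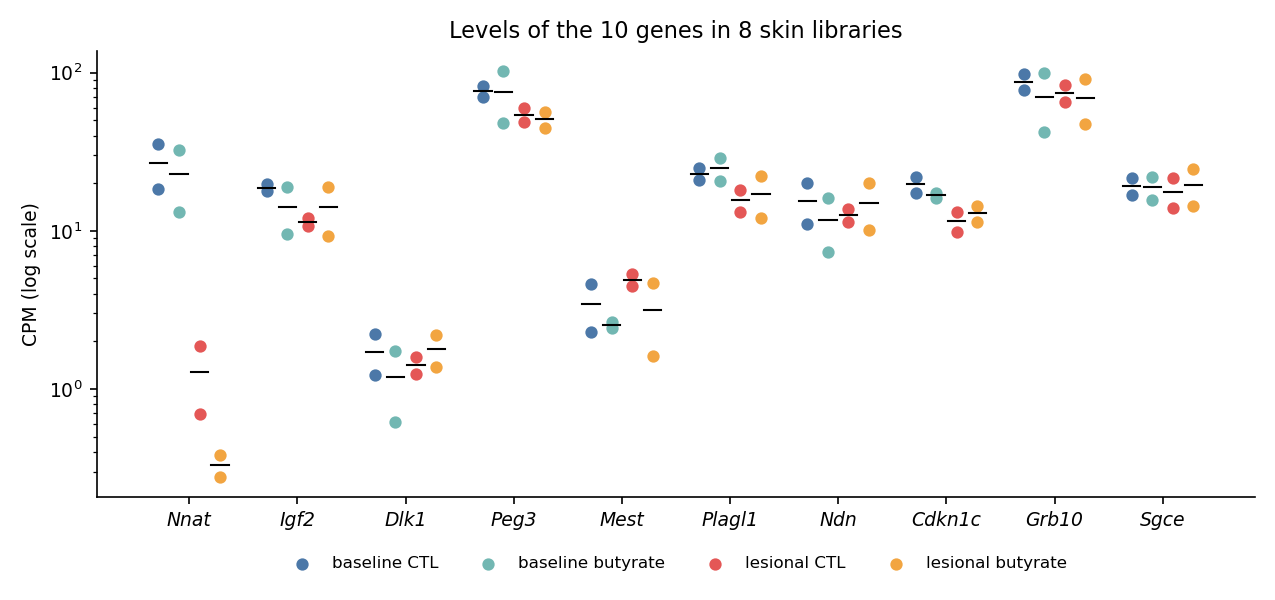
Level of each of the 10 genes in CPM on a log axis, with 1 point per mouse, colours for the 4 groups and a black bar at the mean of the 2 mice. Nnat sits between 13.1 and 35.6 CPM in baseline mice and between 0.279 and 1.87 CPM in lesional mice, while the highest and lowest mice of each of the other 9 genes lie less than 4-fold apart.

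The first comparison asked how the genes differed between HDM-exposed and unexposed skin. In CTL mice, Nnat averaged 26.9 ± 12.2 CPM (SD, n = 2) at baseline and 1.28 ± 0.831 CPM (SD, n = 2) in lesional skin, a fitted log2 fold change of -4.40 (SE 0.70), with means 21.0-fold apart. In butyrate-treated mice it averaged 22.8 ± 13.7 CPM (SD, n = 2) at baseline and 0.330 ± 0.0726 CPM (SD, n = 2) in lesional skin, a fitted log2 fold change of -6.08 (SE 0.80), with means 69.0-fold apart. These comparisons share no mouse. Among 15163 genes ordered by log2 fold change, Nnat was the 16th from the lowest in CTL mice and the 27th in butyrate-treated mice.

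Genes were called by edgeR's quasi-likelihood test at a false discovery rate (FDR) below 0.1 over all genes and a fold-change above 2. Of all tested genes 3.58% were called between lesional and baseline skin in CTL mice and 0.350% in butyrate-treated mice, and 19.7% and 13.1% had an unadjusted p below 0.05. Calls are given only for genes outside the 10, since the values of these libraries chose the 10. Fits that left out 1 mouse gave log2 fold changes of Nnat from -5.27 to -3.84 in CTL mice and from -6.59 to -5.28 in butyrate-treated mice.

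Whole skin holds many cell types, and fewer cells of a type cannot be told apart from less RNA per cell. The summed CPM of 7 fibroblast markers was 3743 to 8470 in baseline and 3459 to 8706 in lesional mice, and these ranges overlapped. That of 7 skeletal muscle markers, which come from the muscle layer under the skin, was 42664 to 51625 in 3 of the baseline mice, above the 15248 to 27293 of the lesional mice. Baseline butyrate replicate 3 had the lowest muscle sum of all 8 mice, at 10834, and its Nnat was 13.1 CPM, above every lesional mouse. The 6 neutrophil markers summed to 13.6 to 22.0 CPM in baseline and 348 to 2651 CPM in lesional mice, and S100a8, S100a9, Csf3r, Cxcr2, Retnlg and Mmp8 were all called higher in CTL mice, as were S100a9 and Cxcr2 in butyrate-treated mice. S100a8 and S100a9 were the largest parts of this sum in lesional mice, at 1000 and 1466 CPM in lesional CTL replicate 4. The paper names S100a8 as TH17/TH22-associated, so the sum need not follow neutrophils alone. Csf3r was 2.76 to 11.7 CPM in baseline and 24.2 to 137 CPM in lesional mice, and Cxcr2 was 2.05 to 3.61 and 26.4 to 64.5 CPM. The part of these cell types in the level of Nnat was not tested.

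The second comparison asked how butyrate-treated and CTL mice differed. In lesional skin, Nnat was lower in butyrate-treated mice with a log2 fold change of -1.92 (SE 0.81) and means 3.87-fold apart, and its groups did not overlap. Groups did not overlap in 44.9% of all tested genes in this comparison, and 0% were called. The comparison shares the lesional CTL mice with that of lesional against baseline skin, and it rests on 6 to 35 reads of Nnat a library. Without lesional CTL replicate 4, the mouse with the most Nnat of the 4 lesional mice, the log2 fold change was -1.05. In baseline skin the log2 fold change was -0.24 (SE 0.58) and the groups overlapped, with its sign turning to 0.31 without baseline CTL replicate 1. The difference between both effects of butyrate was -1.68 (SE 1.00) on the log2 scale, and 0% of genes were called for such a difference. At an unadjusted p below 0.05, edgeR found 4.84% of all genes in lesional skin, 3.49% in baseline skin and 4.64% for the difference. DESeq2 called 124, 58 and 37 genes in these comparisons and limma-voom 1, 0 and 0.

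Blcap, the host gene of Nnat, which encodes a small protein that slows cell growth, had overlapping levels in lesional and baseline skin. It was 49.4 and 46.2 CPM in baseline CTL, 44.8 and 38.9 CPM in baseline butyrate, 52.5 and 47.9 CPM in lesional CTL and 48.3 and 42.2 CPM in lesional butyrate mice. Its log2 fold change between lesional and baseline skin was 0.07 (SE 0.14) in CTL mice and 0.11 (SE 0.14) in butyrate-treated mice, and it was not called.

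Genes of the calcium pump that Nnat's relatives act on did not pass the test. Of 8 genes of SERCA and its small peptide regulators, 5 were listed and tested, and 0 were called in any comparison by edgeR. At an unadjusted p below 0.05, 1 of the 5 differed between lesional and baseline skin in CTL mice, beside 19.7% of all genes, and 0 in the other comparisons of groups. Atp2a1, the pump of fast skeletal muscle, was 1694 to 7329.6 CPM over the 8 mice, with log2 fold changes of -1.07 (SE 0.68) in CTL and -0.18 (SE 0.67) in butyrate-treated mice for lesional against baseline skin. Atp2a2, the pump of most other cells, had values of 0.75 (SE 0.23) and 0.34 (SE 0.23). Sarcolipin (Sln), a muscle peptide that binds the pump, had values of 0.04 (SE 0.59) and -0.35 (SE 0.60). Atp2a3, the pump of blood cells and some epithelia, had values of 0.26 (SE 0.41) and 0.75 (SE 0.41). Phospholamban (Pln), which Nnat resembles, had the lowest value of the 5 in CTL mice, at -1.46. Pln averaged 0.888 CPM in baseline CTL and 0.314 CPM in lesional CTL mice, without overlap, on only 4 to 23 reads a library. In butyrate-treated mice its groups overlapped, with means of 0.767 CPM at baseline and 0.634 CPM in lesional skin.

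The other 9 genes, like Nnat, had reads in every mouse. In CTL mice, 8 of 9 were lower and 1 was higher in lesional than in baseline skin, with a median log2 fold change of -0.30 against -0.02 over all tested genes. The groups of 4 of these 9 did not overlap, all 4 being lower in lesional skin, where 75.2% of all tested genes did not overlap and 38.5% were lower without overlap. In butyrate-treated mice the mean was higher for 4 and lower for 5, the median being -0.01 against -0.04 over all genes, and only Cdkn1c was without overlap (32.5% of all genes in either direction and 16.9% lower).

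**Figure D2:**
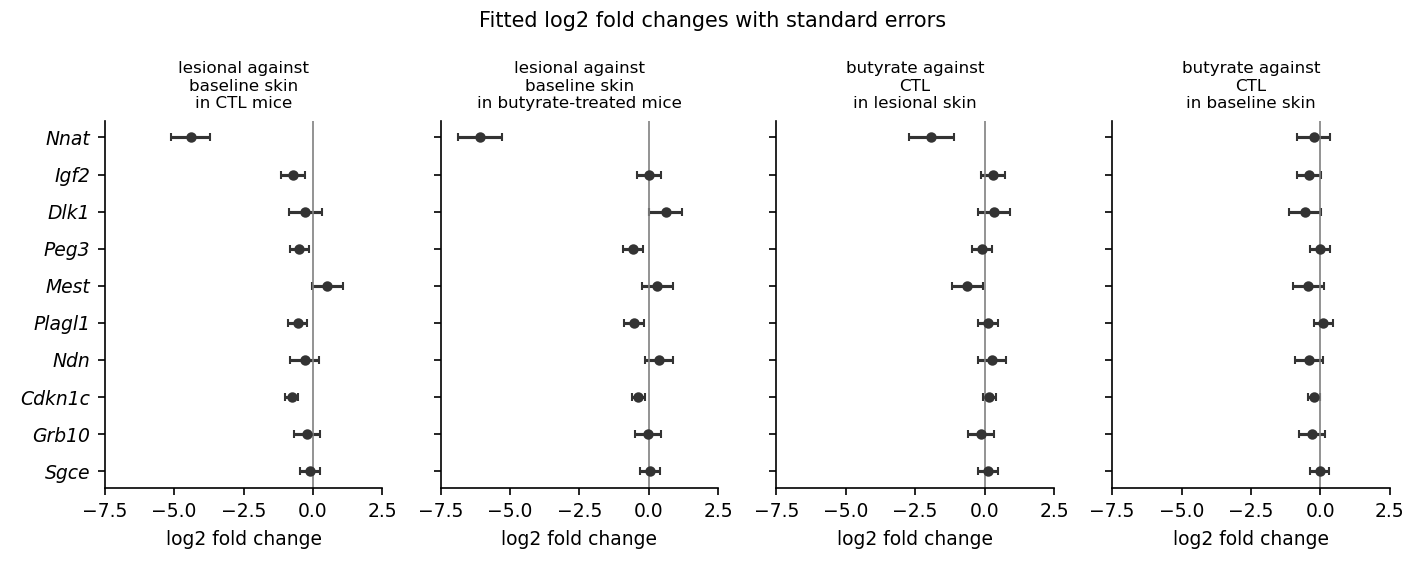
Fitted log2 fold changes of the 10 genes, 1 panel per comparison, with bars of 1 standard error. Nnat lies at -4.40 and -6.08 for lesional against baseline skin, whereas the other 9 genes lie between -0.77 and 0.61 in those panels.

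Igf2 (ENSMUSG00000048583, chr7:142650766-142666816, minus strand) encodes insulin-like growth factor 2, a fetal growth factor expressed from the father's copy. It was 19.7 and 17.8 CPM in baseline CTL, 18.9 and 9.53 CPM in baseline butyrate, 10.7 and 12.1 CPM in lesional CTL and 9.26 and 19.0 CPM in lesional butyrate mice. The CTL groups did not overlap, with a log2 fold change of -0.72 (SE 0.43) in lesional against baseline skin, and the butyrate groups did, with a value of -0.01 (SE 0.43). Igf2 shares 62.83% of its exon bases with the gene model Gm49394 on the same strand, so reads there could be split between both.

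Dlk1 (ENSMUSG00000040856, chr12:109452823-109463336, plus strand), a Delta-like membrane protein that holds back adipocyte differentiation, was among the lowest of the 10. It was 1.22 and 2.22 CPM in baseline CTL, 1.75 and 0.619 CPM in baseline butyrate, 1.60 and 1.25 CPM in lesional CTL and 1.38 and 2.19 CPM in lesional butyrate mice. The groups overlapped in every comparison.

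Growth restraint is the role of Cdkn1c and Grb10, both imprinted. Cdkn1c (ENSMUSG00000037664, chr7:143458339-143461050, minus strand) encodes the cyclin-dependent kinase inhibitor p57, which stops the cell cycle. It was 21.9 and 17.4 CPM in baseline CTL, 17.4 and 16.1 CPM in baseline butyrate, 9.82 and 13.2 CPM in lesional CTL and 11.4 and 14.4 CPM in lesional butyrate mice. All 4 lesional mice were therefore below all 4 baseline mice. The log2 fold change of lesional against baseline skin was -0.77 (SE 0.23) in CTL mice, with means 1.71-fold apart, and -0.38 (SE 0.23) in butyrate-treated mice, with means 1.30-fold apart. Of its exon bases, 30.65% are overlapped by the antisense gene Gm44732.

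Grb10 (ENSMUSG00000020176, chr11:11930508-12038683, minus strand) encodes an adaptor that binds and dampens the insulin and IGF1 receptors. It was 77.5 and 97.8 CPM in baseline CTL, 99.1 and 42.0 CPM in baseline butyrate, 65.7 and 84.0 CPM in lesional CTL and 47.2 and 91.3 CPM in lesional butyrate mice. The groups overlapped in every comparison, and the spread within both butyrate groups was larger than any difference of group means.

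Transcription and chromatin are the field of Peg3, Plagl1 and Ndn. Peg3 (ENSMUSG00000002265, chr7:6703892-6730431, minus strand), a zinc finger protein that marks stem and progenitor cells in several adult tissues, was 81.9 and 70.3 CPM in baseline CTL and 102.4 and 48.4 CPM in baseline butyrate mice. It was 59.4 and 48.6 CPM in lesional CTL and 45.0 and 56.2 CPM in lesional butyrate mice. The CTL groups did not overlap, with a log2 fold change of -0.49 (SE 0.35), and the value in butyrate-treated mice was -0.57 (SE 0.35) with overlap.

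Plagl1 (ENSMUSG00000019817, chr10:13060504-13131694, plus strand) encodes a zinc finger factor known to regulate other imprinted genes. It was 21.1 and 24.9 CPM in baseline CTL, 29.0 and 20.6 CPM in baseline butyrate, 13.2 and 18.1 CPM in lesional CTL and 12.0 and 22.2 CPM in lesional butyrate mice. The CTL groups did not overlap, with a log2 fold change of -0.55 (SE 0.35), and the value was -0.53 (SE 0.35) in butyrate-treated mice, where they did.

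Ndn (ENSMUSG00000033585, chr7:62346569-62350262, plus strand) encodes necdin, a growth suppressor of neurons that lies in the Prader-Willi region. It was 11.0 and 20.0 CPM in baseline CTL, 16.0 and 7.34 CPM in baseline butyrate, 11.4 and 13.8 CPM in lesional CTL and 10.2 and 20.0 CPM in lesional butyrate mice. The groups overlapped in every comparison.

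Mest (ENSMUSG00000051855, chr6:30723547-30748465, plus strand), a hydrolase-like protein linked to the growth of fat tissue, was the only 1 of the 10 with a higher mean in lesional than in baseline CTL skin. It was 2.28 and 4.61 CPM in baseline CTL, 2.42 and 2.67 CPM in baseline butyrate, 5.34 and 4.48 CPM in lesional CTL and 1.62 and 4.70 CPM in lesional butyrate mice. These groups overlapped, with a log2 fold change of 0.51 (SE 0.56). Copg2 on the opposite strand overlaps 23.12% of its exon bases.

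Sgce (ENSMUSG00000004631, chr6:4674350-4747207, minus strand) encodes epsilon-sarcoglycan, the sarcoglycan found outside striated muscle too. It was 16.8 and 21.7 CPM in baseline CTL, 22.0 and 15.7 CPM in baseline butyrate, 14.0 and 21.4 CPM in lesional CTL and 14.4 and 24.5 CPM in lesional butyrate mice. The groups overlapped in every comparison, with log2 fold changes between -0.12 and 0.13.

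Levels can be set side by side between genes per kilobase of exon. In baseline CTL skin, the mean CPM per kilobase was 14.7 for Nnat, 9.64 for Cdkn1c, 9.64 for Grb10, 5.71 for Peg3 and 4.20 for Ndn, and it was 3.28 for Igf2, 2.94 for Plagl1, 1.81 for Sgce, 0.873 for Mest and 0.304 for Dlk1. In lesional CTL skin, Nnat was at 0.700, below all but Dlk1 at 0.252, and in lesional butyrate skin it was at 0.181, the lowest of the 10. The 2 Nnat levels of baseline CTL mice lay 1.94-fold apart, which is more than the step from Nnat to Cdkn1c. In baseline CTL mice the levels overlapped between Nnat and Cdkn1c, Cdkn1c and Grb10, Peg3 and Ndn, Ndn and Igf2, and Igf2 and Plagl1. Both mice were higher for Grb10 than for Peg3, for Plagl1 than for Sgce, for Sgce than for Mest and for Mest than for Dlk1.

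In lesional skin, butyrate-treated and CTL mice overlapped in all 9 other genes, while 44.9% of all tested genes did not overlap. Of the 9, 6 were higher and 3 lower under butyrate, with a median log2 fold change of 0.13 against -0.01 over all genes. In baseline skin 8 of 9 had a lower mean under butyrate, the median being -0.31 against 0.001 over all genes. Only the groups of Cdkn1c did not overlap, at -0.23 (SE 0.23), where 29.7% of all tested genes did not overlap. Its closest mice were at 17.43 CPM in baseline CTL and 17.36 CPM in baseline butyrate. Without baseline butyrate replicate 1, so that the group was the mouse with the anagen follicle genes alone, the log2 fold changes in baseline skin were -1.47 for Dlk1 and -1.07 for Grb10. Without replicate 3, they were 0.02 and 0.18.

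The 9 other genes also differed between mice of the same group. In lesional butyrate mice, replicate 4 was above replicate 3 in 9 of 9 genes, with a median log2 ratio of 0.89, while 50.9% of all genes were higher in replicate 4. Nnat went the other way, at -0.45. In baseline butyrate mice, replicate 3 was below replicate 1 in Nnat and in 8 of the 9 others, with a median log2 ratio of -0.99 over the 9, Mest being the exception.

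The markers of several cell types differed between the same mice. All 7 fibroblast markers were higher in lesional butyrate replicate 4 than in replicate 3, with a median log2 ratio of 1.18, as were 7 of 7 skeletal muscle and 6 of 6 endothelial markers. In baseline butyrate replicate 3, all 7 fibroblast markers were lower than in replicate 1, with a median of -1.12, and all 7 muscle markers were lower with a median of -2.10. Over the 8 mice, log2 CPM of Grb10 and the log2 summed level of the fibroblast markers had a Pearson r of 0.96, and that of Ndn 0.85, while that of Nnat was 0.12. Nnat had an r of -0.86 with the summed neutrophil markers and 0.48 with the summed skeletal muscle markers, the latter being 0.79 over the 6 libraries without the baseline butyrate mice. With 6 cell cycle genes it had -0.31 over the 8 and -0.81 over the 6 libraries. These values share the same 8 libraries and are a description, and the part of tissue make-up in them was not tested.

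**Figure D3:**
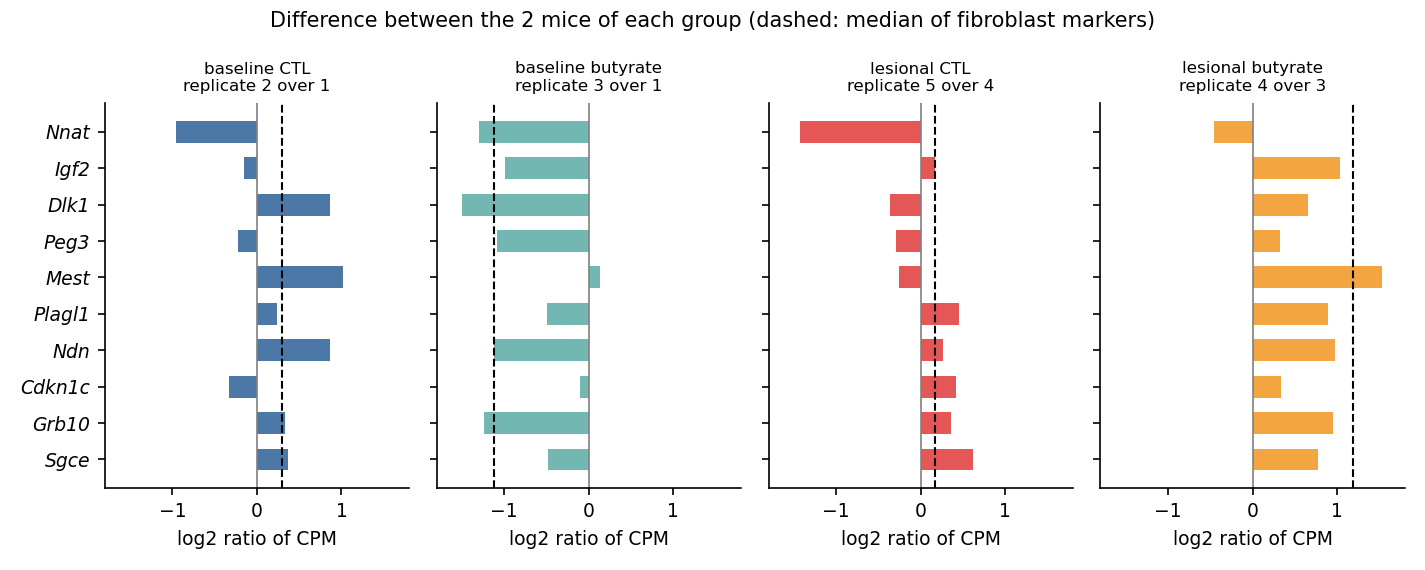
Log2 ratio of CPM between the 2 mice of each group for the 10 genes, with the median of 7 fibroblast markers as a dashed line. In lesional butyrate mice, 9 bars point to the right with the fibroblast markers at 1.18. That of Nnat points to the left there, on 8 and 6 reads, within counting error. In baseline butyrate mice 9 of 10 bars point to the left with the fibroblast markers at -1.12.

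Pairs of the 9 other genes had a higher median correlation than Nnat with the 9, though not for each gene. Over the 8 libraries, the 36 pairs among them had a median Pearson r of log2 CPM of 0.57, from -0.28 for Mest with Cdkn1c to 0.91 for Dlk1 with Ndn. Nnat with the 9 had a median r of 0.18, from -0.23 with Mest to 0.76 with Cdkn1c. Peg3 was at 0.74 with Nnat, above its values with Mest (-0.08), Sgce (0.34), Dlk1 (0.38) and Ndn (0.40).

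Among 14197 other genes with a mean of at least 1 CPM, the 10 whose log2 CPM had the highest r with Nnat over the 8 libraries included D430042O09Rik (0.99), Nt5e (0.98), Enox2, Tbc1d19, Nosip, Gm14378, Ncstn, 4833420G17Rik and Ccng2. None of them is imprinted by the lists used here, and only 2 of the 10 were again among the first 10 in the 6 libraries without the baseline butyrate mice. Their differences were far smaller than that of Nnat. Nt5e, which encodes the adenosine-forming surface enzyme CD73, was 77.3 to 93.9 CPM in baseline and 44.7 to 51.1 CPM in lesional mice. Ccng2, which encodes a cyclin of resting cells, was 48.4 to 53.8 CPM in baseline and 35.3 to 38.4 CPM in lesional mice. Gm14378 had the lowest log2 fold changes of the 10, at -1.20 in CTL mice and -1.50 under butyrate.

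**Figure D4:**
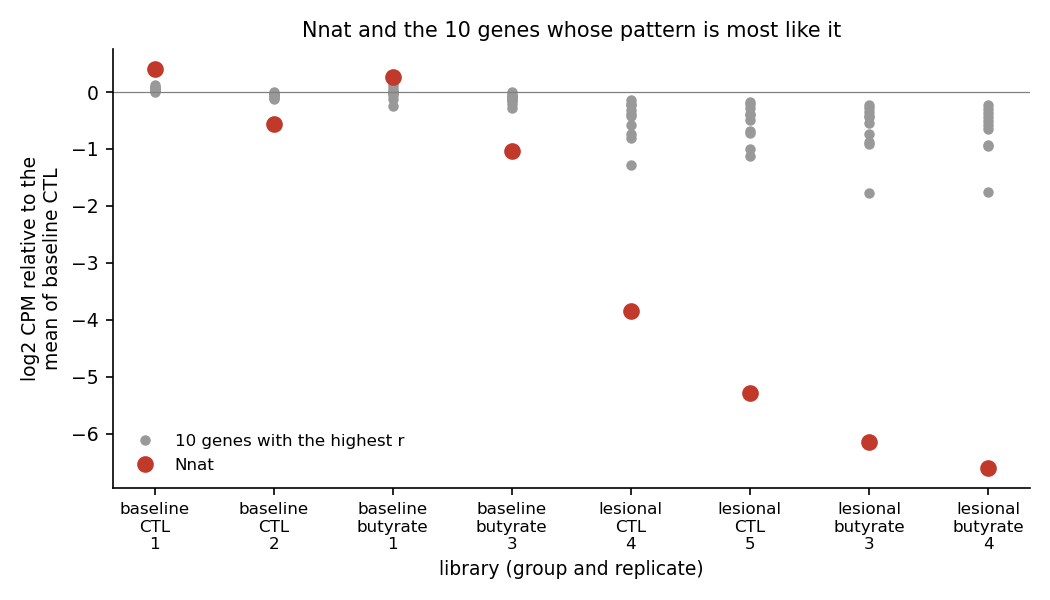
Log2 CPM relative to the mean of the baseline CTL mice for Nnat (red) and the 10 genes with the highest r to it (grey) in each of the 8 libraries. Nnat drops below -3 in all 4 lesional libraries, while the grey points stay above -2.

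Other imprinted genes were set beside the 10. Of 57 such genes, 56 were listed and 49 tested, and edgeR called 2 higher and 0 lower in lesional than in baseline CTL skin, with a median log2 fold change of -0.15 over the 49 against -0.02 over all genes. The 2 are 4.08% of the 49, beside 3.58% of all genes, and 9 or 18.4% had an unadjusted p below 0.05, beside 19.7%. Both called genes lie in imprinted clusters. Tspan32, a tetraspanin of blood cells, was 0.389 and 0.50 CPM in baseline CTL and 2.30 and 1.29 CPM in lesional CTL mice, a log2 fold change of 1.99 (SE 0.47, FDR 0.0951). Tfpi2, an inhibitor of serine proteases of the matrix, was 0.834 and 1.5 CPM in baseline CTL and 6.35 and 7.71 CPM in lesional CTL mice, a log2 fold change of 2.59 (SE 0.57, FDR 0.0877). Their values in butyrate-treated mice were 1.27 (SE 0.45) and 0.88 (SE 0.55), which did not pass the test, and edgeR called 0 of the 49 there, with 4 or 8.16% at an unadjusted p below 0.05, beside 13.1% of all genes. Limma-voom called 1 and DESeq2 3 of the 49 in CTL mice, and both called 0 in butyrate-treated mice. The 2 calls did not hold in every alternative, and calls over all genes moved widely with the mice left out as well. Over 17 alternatives, the log2 fold change in CTL mice ranged from 1.53 to 2.35 for Tspan32 and from 2.23 to 3.07 for Tfpi2. These extremes came from fits without 1 CTL mouse.

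**Figure D5:**
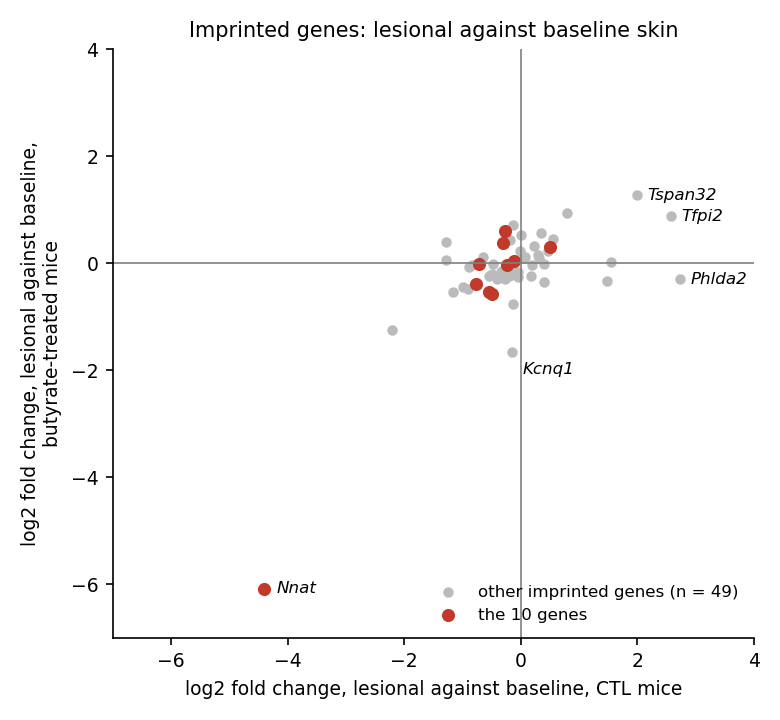
Log2 fold change of lesional against baseline skin in CTL mice (horizontal axis) and in butyrate-treated mice (vertical axis), for the 10 genes in red and 49 other imprinted genes in grey. Nnat lies alone at -4.40 and -6.08, and Tspan32 and Tfpi2 lie at 1.99 and 2.59 on the horizontal axis.

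A list of genes that share an imprinted cluster with a member was counted next. It did not hold the called genes Tspan32 and Tfpi2. Tspan32 lies between Igf2 and Cdkn1c on chromosome 7, and Tfpi2 lies on chromosome 6, as Sgce does. The counts of neighbours below therefore do not cover these called genes. Of 20 such neighbours 15 were tested, and edgeR and limma-voom called 0 of them between lesional and baseline skin, with 0 in CTL and 1 in butyrate-treated mice at an unadjusted p below 0.05 (19.7% and 13.1% of all genes), while DESeq2 called 1 in CTL mice. Peg10, a retrotransposon-derived gene that shares its control region with Sgce, had values of -0.19 (SE 0.51) and 0.44 (SE 0.52). Near Cdkn1c, Cd81 was at -0.01 (SE 0.21) and 0.23 (SE 0.21), and Phlda2, a placental growth restrainer, was at 2.73 (SE 1.15) in CTL mice and -0.30 (SE 0.99) in butyrate-treated mice. Phlda2 was 5.91 CPM in baseline butyrate replicate 3 against 0.395 to 0.50 CPM in the other 3 baseline mice and 1.86 to 3.68 CPM in lesional mice. Kcnq1, a potassium channel gene of the same cluster, was likewise highest in baseline butyrate replicate 3, at 6.43 CPM against 1.19 to 2.09 CPM in the other 7 mice. Zim1 beside Peg3, Copg2 beside Mest, Mkrn3 and Peg12 beside Ndn, and Slc22a18 and Tssc4 near Cdkn1c had log2 fold changes between -0.76 and 0.94 in these comparisons. Begain beside Dlk1, Ddc beside Grb10, and Ppp1r9a and Asb4 beside Sgce had values between -1.28 and 1.55, the former for Asb4 and the latter for Ddc, both in CTL mice. Of the 5 neighbours that did not pass the filter, Dio3, a deiodinase gene near Dlk1, was 12.3 CPM in baseline butyrate replicate 3 and at most 0.369 CPM in the other 7 mice, and Ins2, Rtl1, Usp29 and Magel2 were at most 0.140 CPM in every mouse.

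The partners of Igf2 and Grb10 in insulin-like growth factor signalling were counted as well. Of 20 genes 17 were tested and edgeR called 0 in any comparison. Between lesional and baseline CTL skin 13 of 17 were lower, with a median log2 fold change of -0.48 against -0.02 over all genes, and 5 or 29.4% had an unadjusted p below 0.05, beside 19.7% of all genes, of which DESeq2 called 1. In butyrate-treated mice 10 of 17 had a lower mean in lesional skin, the median being -0.17 against -0.04 over all genes, and 3 or 17.6% had an unadjusted p below 0.05, beside 13.1% of all genes. DESeq2 called 2. The most abundant were binding proteins of the growth factors. Igfbp5 was at -0.48 (SE 0.52) in CTL and 0.04 (SE 0.52) in butyrate-treated mice, Igfbp3 at -0.59 (SE 0.52) and 0.65 (SE 0.52), Igfbp7 at 0.50 (SE 0.27) and 0.13 (SE 0.27), and Igfbp4 at -0.17 (SE 0.30) and -0.72 (SE 0.30).

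Among 6 other cyclin-dependent kinase inhibitors, edgeR called 0 in any comparison, with 1 at an unadjusted p below 0.05 in each comparison of lesional with baseline skin, where 19.7% of all genes in CTL and 13.1% in butyrate-treated mice were below it. Cdkn1b, which encodes p27, was at -0.58 (SE 0.14) in CTL and -0.50 (SE 0.14) in butyrate-treated mice, and Cdkn1a, which encodes p21, was at -0.10 (SE 0.30) and -0.24 (SE 0.30). Of the 8 tested genes of the sarcoglycan and dystroglycan complex, all 8 were lower in lesional CTL skin without overlap, with a median log2 fold change of -0.77, and edgeR called 1. Of all tested genes, 38.5% were lower without overlap and 3.58% were called in this comparison. In butyrate-treated mice all 8 had a lower mean, with a median of -0.49, 2 were without overlap (16.9% of all genes), and 0 were called. The call in CTL mice was Utrn, encoding the dystrophin relative utrophin, at -1.02 (SE 0.18, FDR 0.0559), which was called in 9 of 17 alternatives. Dmd, encoding dystrophin, was at -0.73 (SE 0.27), Sgcb, beta-sarcoglycan, at -0.44 (SE 0.33), and Dag1, dystroglycan, at -0.36 (SE 0.22), and the muscle markers above were lower in the same mice, all 7 without overlap and 0 called.

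The Notch pathway, to which Dlk1 is related by sequence, held 11 tested genes, of which edgeR called 0, with 2 at an unadjusted p below 0.05 in CTL and 1 in butyrate-treated mice, or 18.2% and 9.09% beside the 19.7% and 13.1% of all genes. Notch1 was at -0.47 (SE 0.35), Notch2 at -0.08 (SE 0.12), Jag1 at 0.26 (SE 0.35) and Jag2 at -0.30 (SE 0.12) between lesional and baseline CTL skin. Of 6 relatives of Plagl1 and Ndn, edgeR called 0, with 0 in CTL and 1 in butyrate-treated mice at an unadjusted p below 0.05 (19.7% and 13.1% of all genes), and DESeq2 called 1 in butyrate-treated mice. Maged1 was at -0.13 (SE 0.22) in CTL mice and Plag1, a growth-promoting zinc finger gene, was at -0.76 (SE 0.50) in CTL and -1.69 (SE 0.50) in butyrate-treated mice. Plag1 was 21.4 CPM in baseline butyrate replicate 3 and 4.11 to 7.89 CPM in the other 7 mice.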

How the data were processed

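RNA was measured in skin of 8 mice, 2 per group, of 16 samples that the series mentions. The authors aligned reads with STAR 2.5.2 to GRCm38 through RNASik and counted them with featureCounts, and the deposited values are raw counts of protein-coding genes in a reverse-stranded setting, while the labels name a TruSeq RNA kit without stating its strand. Groups were taken from the labels, where SCFA was read as butyrate and vehicle as CTL.

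Counts of all 8 mice were fitted with the quasi-likelihood method of edgeR (version 4.0.16, R 4.3.3) after TMM scaling and filterByExpr (minimum count 10), while the study's methods use limma-voom, an alternative here (limma 3.58.1) beside DESeq2 1.42.0. A called gene had an FDR (Benjamini-Hochberg) under 0.1 and differed by more than 2-fold. Log2 fold changes carry a prior count of 0.125. Other alternatives were other scalings, no filter, a prior count of 2, an FDR below 0.05, only the mice compared, and fits without 1 mouse. On simulated counts of lesional against baseline CTL skin (15061 genes, 200 of them set to differ by 2 on the log2 scale), edgeR recovered 77% and made 12 wrong calls. DESeq2 recovered 89.5% but made 89 wrong calls, and limma-voom recovered 75.5% and made 9. Where nothing was set to differ, DESeq2 called 46 genes and the others 0.

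The 10 genes, the gene lists and the comparisons were chosen with earlier results of these data known. Named genes are the 10 genes, the neighbours in their clusters, called genes of each list, up to 4 of the highest mean CPM in each pathway list (cell type markers served only as levels), and the 10 genes most like Nnat. Pln was added to these. A few genes that this rule names are not reported here. Gene coordinates are from GENCODE vM21 (GRCm38) and promoters from RefSeq (GRCm38.p6). Library totals were 18004136 to 21085544, and counting error limits genes near 3 counts.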

Additional observations from a re-analysis of the deposited data

Results flagged for a closer look

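Among the 10 genes and 49 other imprinted genes, 4 of the latter had mice of one skin all moving one way under butyrate, or under HDM, and mice of the other group all moving the opposite way. For Rasgrf1, the log2 fold change of butyrate against CTL was 0.65 in lesional and -0.16 in baseline skin, a difference of 0.81. For Osbpl5 it was 0.39 and -0.38, a difference of 0.76, and for Zrsr1 it was 0.29 and -0.26, a difference of 0.55. For Dhcr7, the log2 fold change of lesional against baseline skin was 0.41 in butyrate-treated and -0.29 in CTL mice, a difference of 0.70. EdgeR's test of each difference did not pass, with an FDR of 0.840 for all 4, and they were found by looking through 59 genes with 2 mice a group. For butyrate, groups did not overlap in 44.9% of all tested genes in lesional and 29.7% in baseline skin. For HDM these shares were 75.2% in CTL and 32.5% in butyrate-treated mice. The share of all genes with such opposed directions was not counted. Of the 10 genes, 0 were of this kind.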

How the results depend on the processing

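The values of Nnat are a description, since these libraries chose it. Fits without 1 mouse gave log2 fold changes of -5.27 to -3.84 in CTL mice and -6.59 to -5.28 in butyrate-treated mice.

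Of the other imprinted genes, lesional against baseline CTL skin had 0 calls with an FDR below 0.05, 1 with limma-voom, 1 with no filter, 7 with only the 4 mice and 6 without both baseline butyrate mice. Without 1 mouse they had 0 to 7 calls there, 0 to 9 in butyrate-treated mice, 0 to 12 for butyrate in baseline skin and 0 to 11 for the difference of the butyrate effects.

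Counts over all genes moved widely. DESeq2 called 124, 58, 1093, 698 and 37 genes for butyrate in lesional skin, butyrate in baseline skin, HDM in CTL mice, HDM in butyrate-treated mice and the difference. Without 1 mouse these were 0 to 191, 0 to 3476, 0 to 1877, 0 to 2702 and 0 to 3137. For butyrate in lesional skin, limma-voom called 1, only the 4 mice 25 and fits without both baseline butyrate mice 188. For HDM in CTL mice, an FDR below 0.05 left 245, only the 4 mice gave 1918 and fits without both baseline butyrate mice 1860. For HDM in butyrate-treated mice, an FDR below 0.05 left 17, library totals gave 83 and only the 4 mice 0. Scaling by library totals moved the median of all genes from -0.02 to 0.11 in lesional against baseline CTL skin. The cause of these shifts was not tested, beyond the fewer mice in such fits. With 1 mouse left out, the lone mouse is assumed to vary like the other groups. The sign of the other 9 genes turned in some of these fits, as in 7 of 16 for Igf2 in butyrate-treated mice. No paired analysis was made because the labels pair no mouse of one group with a mouse of another.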
